A study of Mus musculus with 5 samples.

Results

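The 10 genes described here make and cross-link elastic fibres: the lysyl oxidases Lox, Loxl1, Loxl2, Loxl3 and Loxl4, and the fibre components Eln, Fbn1, Fbn2, Fbln5 and Mfap5. They were chosen by name, for their function, from the 32285 genes of the count matrices, and all 10 had UMIs in each of the 5 libraries. Earlier results of these data were known at that choice, so the shares of all genes given beside their calls are a description. The libraries are single-cell RNA-seq (10X 3' v3.1 kit) of mouse tissue, from strain C57BL/6N by the labels and C57BL/6J by the study's methods, a conflict not settled here: 3 penis libraries from postnatal day 6, Penis 1, 2 and 3, and 1 forelimb and 1 hindlimb library from embryonic day 15. Per the study's methods the penis samples came from 3 male mice of 2 litters and the limbs from male embryos. The labels do not tie an animal to a library. Forelimb and hindlimb served as the 2 limb samples, so p-values measure only the spread between these libraries, and tissue, age and tissue preparation cannot be told apart in any comparison of penis with limb.

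Lysyl oxidases are secreted, copper-dependent enzymes that oxidise lysine side chains of tropoelastin and fibrillar collagens, which then form covalent cross-links. Elastic fibres consist of a core of cross-linked elastin, encoded by Eln, on a scaffold of microfibrils built from the fibrillins Fbn1 and Fbn2 with the small microfibril glycoprotein Mfap5. Fibulin-5, encoded by Fbln5, binds both elastin and Loxl1 and helps to place elastin on the microfibrils. Elastic fibres give stretch and recoil to arteries, skin, elastic cartilage and the erectile tissue of the penis, and Fbn2 is best known from fetal microfibrils.

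On GRCm38 the lysyl oxidase genes lie at chromosome 18, 52516067 to 52529867 (Lox), chromosome 9, 58287738 to 58313186 (Loxl1), chromosome 14, 69609068 to 69695834 (Loxl2), chromosome 6, 83034173 to 83052562 (Loxl3) and chromosome 19, 42593982 to 42612813 (Loxl4). The fibre genes lie at chromosome 5, 134702593 to 134747323 (Eln), chromosome 2, 125300594 to 125507993 (Fbn1), chromosome 18, 58008623 to 58210487 (Fbn2), chromosome 12, 101746565 to 101819055 (Fbln5) and chromosome 6, 122505845 to 122529290 (Mfap5). The GENCODE M21 annotation places a gene on the opposite strand over part of 6 of them (Lox, Loxl2, Loxl3, Eln, Fbn1 and Fbn2), with the protein-coding Htra2 over Loxl3. After the study's limits on cells, 5708 to 7085 cells remained per penis library and 20514 to 22057 per limb library, with median UMI counts per cell of 8792 to 9909 in the penis and 5358 to 6057 in the limbs. Libraries shared 20 to 203 cell barcodes in pairs. Cells were assigned to types by marker genes, none of them 1 of the 10, and levels are summed UMI counts of a type scaled to the total of that type in the library (CPM). CPM of different genes were not compared with each other.

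Of the types used, all but mesenchyme-like cells had markers of their own among their 10 leading genes. The mesenchyme-like cells (2972, 3110 and 2584 per penis library, forelimb 10269, hindlimb 10296), the reference of the contrasts below, had none there in either tissue. The mesenchymal markers of these cells summed to 3967 to 4039.7 CPM in the penis and 3485 to 3579 in the limbs. Adventitial fibroblast-like cells (1183, 1188 and 974 per penis library, forelimb 1677, hindlimb 1000) had their markers Clec3b, Ly6a and Pi16 among the 4 leading genes in both tissues, with Wnt2 as the other one in the penis and Mfap5, 1 of the 10 genes described, in the limbs. Pericyte-like cells also carried fibroblast markers, and Ly6a and Dpp4 were among their 10 leading genes in the limbs. Of these cells 40.1 to 47.4% in the penis and 50.4 to 59.7% in the limbs had a UMI of the fibroblast gene Pdgfra, and their adventitial markers summed to 972 to 1398 and 681 to 1027 CPM. In smooth muscle-like cells those shares were 33.0 to 38.2% and 60.7 to 72.2%, and in endothelial-like cells 10.0 to 11.2% and 19.9 to 23.2%. The penis chondrocyte-like cells carried the mesenchymal markers at 4780.2 to 5109 CPM against 1700.5 to 1878 in the limbs, above the penis mesenchyme-like cells themselves, and the osteoblast markers at 802 to 1543 against 199 to 251 CPM. The part of these markers in the results below was not tested. Cells gated as red blood-like held 2992 to 3335 CPM of mesenchymal markers in the penis and are not used as a type in the tests. Osteoblast-like cells (15, 16 and 12 per penis library, forelimb 12, hindlimb 8) were too few for a test.

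**Figure D1:**
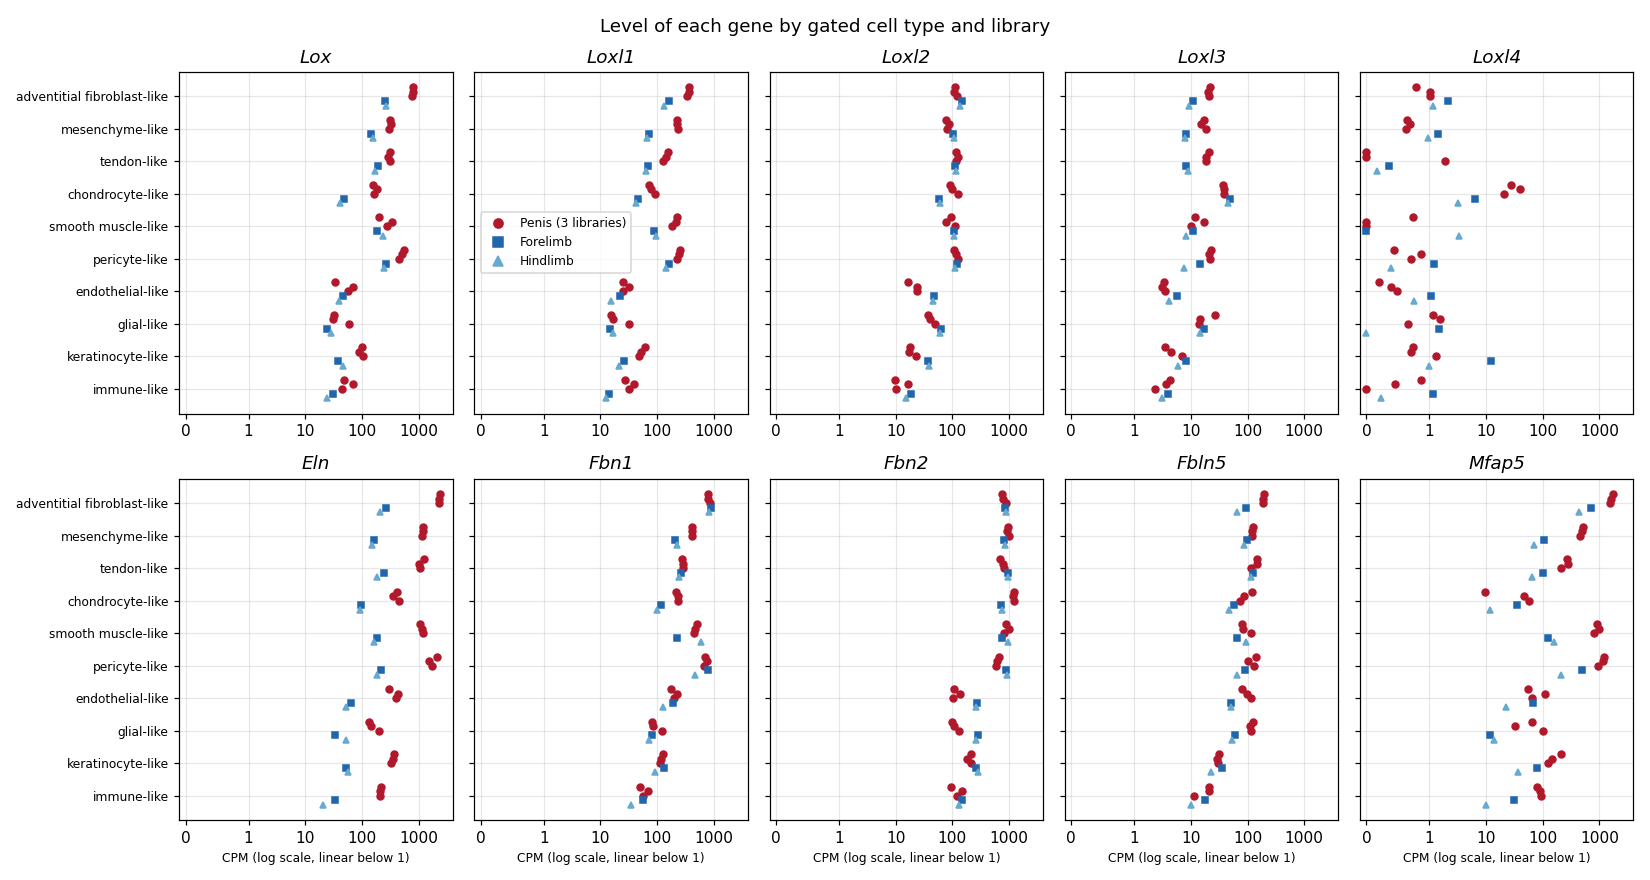
CPM of the 10 genes (x axis, log scale, linear below 1) in 10 gated cell types (rows), 1 point per library. Penis points lie to the right of limb points for Eln in every type shown, while Fbn2 points of the fibroblast types overlap or nearly overlap. For Eln this held in immune-like cells too, read below as background, at 207 to 222 CPM in the penis and 20.9 to 33.5 CPM in the limbs.

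Mesenchyme-like and adventitial fibroblast-like cells together supplied most UMIs of 8 of the 10 genes in every library, the exceptions being Loxl3 in the limbs and Loxl4 in all libraries but the hindlimb. For Lox, 37.7 to 37.9% of the penis UMIs came from mesenchyme-like and 45.2 to 46.6% from adventitial fibroblast-like cells, against 50.4 to 61.0% and 14.6 to 22.5% in the limbs. Chondrocyte-like cells supplied 32.4 to 43.1% of the limb Loxl3 UMIs and 5.65 to 6.89% of those in the penis. For Loxl4 they supplied 37.1 to 58.5% in the penis and 26.8 to 32.0% in the limbs. These shares follow the numbers of cells as well as their levels.

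**Figure D2:**
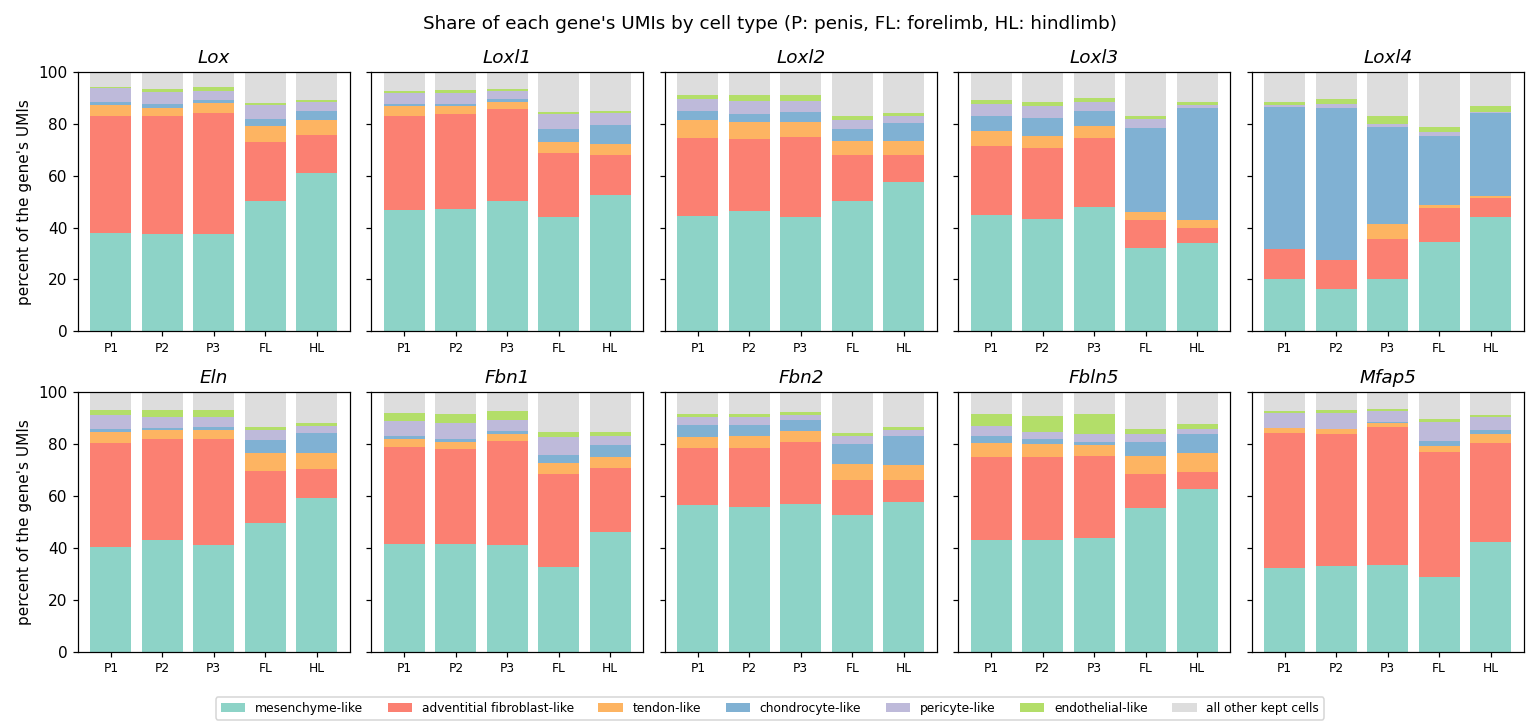
Percent of each gene's UMIs (y axis) that came from each cell type, in stacked bars, 1 bar per library (x axis). Adventitial fibroblast-like cells gave 51.0 to 53.2% of the Mfap5 UMIs in the penis and 38.2 to 47.9% in the limbs, and the chondrocyte-like share is largest for Loxl4 in the penis and for Loxl3 in the limbs.

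Mean CPM over libraries ordered 10 cell types as follows, with the highest 5 given for the penis and the highest 3 for the limbs, as a description without a test. The order leaves out osteoblast-like and muscle-like cells, which were under 20 in some libraries, and the red blood-like gate. Eln, elastin itself, was highest in the penis in adventitial fibroblast-like (2364 CPM) cells, then pericyte-like (1794 CPM), mesenchyme-like (1173 CPM), smooth muscle-like (1133 CPM) and tendon-like (1102 CPM), with the libraries overlapping between mesenchyme-like and smooth muscle-like and between smooth muscle-like and tendon-like. Eln in the limbs was highest in adventitial fibroblast-like (236 CPM) cells, then tendon-like (215 CPM) and pericyte-like (202 CPM), with the libraries overlapping between adventitial fibroblast-like and tendon-like and between tendon-like and pericyte-like. Fbn1, the main fibrillin of adult microfibrils, was highest in the penis in adventitial fibroblast-like (809 CPM) cells, then pericyte-like (699.7 CPM), smooth muscle-like (472 CPM), mesenchyme-like (415 CPM) and tendon-like (281 CPM), with no neighbours overlapping. Fbn1 in the limbs was highest in adventitial fibroblast-like (869 CPM) cells, then pericyte-like (629 CPM) and smooth muscle-like (406 CPM), with the libraries overlapping between pericyte-like and smooth muscle-like. Fbn2, the fetal fibrillin, was highest in the penis in chondrocyte-like (1217 CPM) cells, then mesenchyme-like (956 CPM), smooth muscle-like (901 CPM), adventitial fibroblast-like (812 CPM) and tendon-like (765 CPM), with the libraries overlapping between mesenchyme-like and smooth muscle-like, between smooth muscle-like and adventitial fibroblast-like and between adventitial fibroblast-like and tendon-like. Fbn2 in the limbs was highest in tendon-like (964 CPM) cells, then pericyte-like (893 CPM) and adventitial fibroblast-like (870.4 CPM), with the libraries overlapping between pericyte-like and adventitial fibroblast-like. Mfap5, the microfibril glycoprotein, was highest in the penis in adventitial fibroblast-like (1625 CPM) cells, then pericyte-like (1096 CPM), smooth muscle-like (891 CPM), mesenchyme-like (488 CPM) and tendon-like (253 CPM), with the libraries overlapping between pericyte-like and smooth muscle-like. Mfap5 in the limbs was highest in adventitial fibroblast-like (573 CPM) cells, then pericyte-like (347 CPM) and smooth muscle-like (139 CPM), with the libraries overlapping between adventitial fibroblast-like and pericyte-like. Fbln5, the fibulin that binds elastin, was highest in the penis in adventitial fibroblast-like (189 CPM) cells, then tendon-like (137 CPM), pericyte-like (125 CPM), mesenchyme-like (122 CPM) and glial-like (117 CPM), with the libraries overlapping between tendon-like and pericyte-like, between pericyte-like and mesenchyme-like and between mesenchyme-like and glial-like. Fbln5 in the limbs was highest in tendon-like (118 CPM) cells, then mesenchyme-like (90.7 CPM) and adventitial fibroblast-like (79.3 CPM), with the libraries overlapping between mesenchyme-like and adventitial fibroblast-like. Adventitial fibroblast-like cells led in the penis for Eln, Fbn1, Fbln5 and Mfap5, and chondrocyte-like cells for Fbn2. The smooth muscle-like places in the limbs rest on 28 forelimb and 36 hindlimb cells, 60.7 and 72.2% of them with a Pdgfra UMI. The pericyte-like and smooth muscle-like places include the cells with a Pdgfra UMI. Without those cells, penis pericyte-like Eln lay below the mesenchyme-like level and Mfap5 overlapped it, with the values given below.

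Among the lysyl oxidases the leading types differed, again over the 10 types without osteoblast-like cells. Lox, the founding enzyme, was highest in the penis in adventitial fibroblast-like (793 CPM) cells, then pericyte-like (506 CPM), mesenchyme-like (312 CPM), tendon-like (308 CPM) and smooth muscle-like (271 CPM), with the libraries overlapping between mesenchyme-like and tendon-like and between tendon-like and smooth muscle-like. Lox in the limbs was highest in adventitial fibroblast-like (262 CPM) cells, then pericyte-like (254 CPM) and smooth muscle-like (208 CPM), with the libraries overlapping between adventitial fibroblast-like and pericyte-like. Loxl1, the enzyme that binds fibulin-5, was highest in the penis in adventitial fibroblast-like (353 CPM) cells, then pericyte-like (239 CPM), mesenchyme-like (225 CPM), smooth muscle-like (209.5 CPM) and tendon-like (143 CPM), with the libraries overlapping between pericyte-like and mesenchyme-like and between mesenchyme-like and smooth muscle-like. Loxl1 in the limbs was highest in pericyte-like (154 CPM) cells, then adventitial fibroblast-like (147 CPM) and smooth muscle-like (92.7 CPM), with the libraries overlapping between pericyte-like and adventitial fibroblast-like. Loxl2, a member with scavenger receptor domains, was highest in the penis in tendon-like (119.7 CPM) cells, then pericyte-like (116 CPM), adventitial fibroblast-like (113 CPM), chondrocyte-like (104 CPM) and smooth muscle-like (94.6 CPM), with the libraries overlapping between tendon-like and pericyte-like, between pericyte-like and adventitial fibroblast-like, between adventitial fibroblast-like and chondrocyte-like and between chondrocyte-like and smooth muscle-like. Loxl2 in the limbs was highest in adventitial fibroblast-like (141 CPM) cells, then pericyte-like (116 CPM) and tendon-like (116 CPM), with the libraries overlapping between pericyte-like and tendon-like. Loxl3, which also has scavenger receptor domains, was highest in the penis in chondrocyte-like (37.9 CPM) cells, then pericyte-like (21.9 CPM), adventitial fibroblast-like (21.0 CPM), tendon-like (19.3 CPM) and glial-like (18.2 CPM), with the libraries overlapping between pericyte-like and adventitial fibroblast-like, between adventitial fibroblast-like and tendon-like and between tendon-like and glial-like. Loxl3 in the limbs was highest in chondrocyte-like (47.8 CPM) cells, then glial-like (15.6 CPM) and pericyte-like (11.1 CPM), with the libraries overlapping between glial-like and pericyte-like. Loxl4, the last member of the family, was highest in the penis in chondrocyte-like (29.2 CPM) cells, then glial-like (1.12 CPM), adventitial fibroblast-like (0.941 CPM), keratinocyte-like (0.924 CPM) and pericyte-like (0.672 CPM), with the libraries overlapping between glial-like and adventitial fibroblast-like, between adventitial fibroblast-like and keratinocyte-like and between keratinocyte-like and pericyte-like. Loxl4 in the limbs was highest in keratinocyte-like (6.605 CPM) cells, then chondrocyte-like (4.87 CPM) and adventitial fibroblast-like (1.65 CPM), with the libraries overlapping between keratinocyte-like and chondrocyte-like. Penis pericyte-like Lox lay below the mesenchyme-like level once the cells with a Pdgfra UMI were left out, as given below. The smooth muscle-like places again include such cells, which were most of that gate in the limbs. Chondrocyte-like cells led for both Loxl3 and Loxl4 in the penis, and the limb keratinocyte-like mean of Loxl4 rests on 18 UMIs in 3 forelimb cells. The left-out osteoblast-like cells held Lox at 349 to 461 CPM, Loxl2 at 87.3 to 246 CPM and Loxl1 at 89.3 to 112 CPM in the limbs. In the penis they held Loxl3 at 10.0 to 38.7 CPM and Loxl4 at 10.0 to 28.9 CPM. Their means lay above the first type named for limb Lox and Loxl2 and above the second for penis Loxl3 and Loxl4. The limb Loxl1 mean lay above the third.

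In mesenchyme-like cells, the largest type in every library, the penis libraries held more Eln, Mfap5, Loxl1, Loxl3 and Lox than the limb libraries. With edgeR's quasi-likelihood test, 5 of 10 genes were called higher in the penis and 0 lower, a call being an adjusted p under 0.01 and a log2 fold change over 1 in size, and at an unadjusted p under 0.05 they numbered 8 higher and 2 lower, and DESeq2 called 4 and 0. Over all 19175 genes tested 12.5% were called higher and 12.6% lower. In either direction 13999 of them had an unadjusted p under 0.05. Here and below, the shares of all genes are of edgeR calls. The median log2 fold change was 0.96 over the 10 genes and 0.00 over all genes. Eln, the elastin precursor, stood at 1177, 1212 and 1130.4 CPM in Penis 1, 2 and 3, 165 CPM in the forelimb and 154 CPM in the hindlimb, or 1173 ± 41.1 CPM (SD, n = 3) against 159 ± 7.84 CPM (SD, n = 2). The groups did not overlap, and the penis mean was 7.36 times the limb mean (log2 fold change 2.84 ± 0.08 (SE), adjusted p = 5.35e-09). Mfap5, which binds fibrillins, stood at 506, 496 and 462 CPM in Penis 1, 2 and 3, 107 CPM in the forelimb and 68.9 CPM in the hindlimb. All penis libraries lay above both limbs (log2 fold change 2.43 ± 0.16 (SE), adjusted p = 9.96e-07), and the hindlimb was the lower of the limbs. Fbn1, the fibrillin of adult tissue, stood at 411, 416 and 418 CPM in the penis libraries against 208 and 221 CPM in the limb libraries. Its adjusted p was 7.94e-07, but its log2 difference of 0.91 ± 0.06 (SE) stayed under the limit of 1. Fbn2 (948, 929.7 and 990.1 CPM in the penis libraries against 827 and 849.7 CPM in the limb libraries, log2 difference 0.15 ± 0.06, adjusted p = 0.06) and Fbln5 (124, 121 and 121 CPM in the penis libraries against 96.3 and 85.1 CPM in the limb libraries, 0.39 ± 0.07, adjusted p = 5.09e-04) differed by less.

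The 5 lysyl oxidases did not move together in mesenchyme-like cells. Loxl1, the family member tied to elastin, stood at 223, 222 and 229.9 CPM in Penis 1, 2 and 3, 71.1 CPM in the forelimb and 65.1 CPM in the hindlimb (log2 fold change 1.68 ± 0.06 (SE), adjusted p = 1.92e-08). Lox, the founding member, stood at 314, 323 and 300.4 CPM in Penis 1, 2 and 3, 147 CPM in the forelimb and 156 CPM in the hindlimb (log2 fold change 1.01 ± 0.07 (SE), adjusted p = 8.69e-07). Both had penis libraries that lay close together and far above the limbs. Loxl3, a close relative of Loxl2, stood at 17.4, 15.4 and 18.2 CPM in Penis 1, 2 and 3, 8.22 CPM in the forelimb and 7.996 CPM in the hindlimb (log2 fold change 1.02 ± 0.08 (SE), adjusted p = 3.65e-06). Loxl2, known for its action on basement membrane collagen, stood at 79.0, 86.1 and 82.2 CPM in the penis libraries against 102 and 106 CPM in the limb libraries. Its penis libraries lay below both limbs, by a log2 difference of -0.37 ± 0.06 (adjusted p = 3.32e-04) that was under the limit. Loxl4 stood at 0.623 to 0.688 CPM in the penis and 0.972 to 1.39 CPM in the limbs (log2 difference -0.88 ± 0.25, adjusted p = 0.011). The calls of Lox and Loxl3 lay at the fold limit. The log2 difference of Lox was 0.98 without Penis 2 and 0.97 without the forelimb, and that of Loxl3 0.99 without the hindlimb, while Loxl4 passed the limit at -1.13 without the hindlimb.

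Shares of cells with a UMI gave the same order once depth was made equal. With mesenchyme-like cells thinned to 2000 UMIs and those below that depth left out, which kept 2925, 3061 and 2530 cells of the penis libraries, 9872 of the forelimb and 10115 of the hindlimb, 58.4% of penis and 24.2% of limb cells were expected to hold an Eln UMI, 38.0% and 10.9% a Mfap5 UMI, 33.3% and 12.3% a Loxl1 UMI, and 72.4% and 72.2% a Fbn2 UMI. Unthinned, the shares with an Eln UMI were 84.4 to 87.1% and 44.7 to 49.1%, and those with a Fbn2 UMI 91.9 to 92.1% and 90.4 to 93.4%. Immune-like cells, which should lack elastin, gave 11.8 to 15.0% for Eln in the penis and 2.95 to 3.50% in the limbs at the same depth and are read as background. Their shares were 5.57 to 6.17% and 1.28 to 2.82% for Mfap5, 3.47 to 4.26% and 1.51 to 1.61% for Loxl1, and 8.997 to 12.9% and 11.2 to 12.1% for Fbn2. For Loxl2 the thinned share was 14.1% in the penis and 17.6% in the limbs, the order of its CPM, with 1.26 to 1.95% and 2.41 to 2.69% in immune-like cells. Its unthinned shares, 42.5 to 45.4% and 37.9 to 42.8%, overlapped and had the higher mean in the penis.

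Adventitial fibroblast-like cells of the penis held the highest Eln levels of the tested types, and Fbln5 joined the genes that were higher in the penis. Here 6 of 10 genes were called higher and 0 lower (at an unadjusted p under 0.05 they numbered 6 higher and 2 lower, and DESeq2 called 5 and 0), against 11.7% and 10.4% of all 17113 genes. An unadjusted p under 0.05 in either direction was found for 11225 of these 17113 genes. Eln stood at 2441, 2311 and 2339.8 CPM in Penis 1, 2 and 3, 264 CPM in the forelimb and 208 CPM in the hindlimb, 10.0 times the limb mean (log2 fold change 3.29 ± 0.12 (SE), adjusted p = 2.43e-09). Lox stood at 784, 812 and 783 CPM in Penis 1, 2 and 3, 260.1 CPM in the forelimb and 264 CPM in the hindlimb (log2 fold change 1.56 ± 0.07 (SE), adjusted p = 2.16e-08). In both genes the penis libraries lay within a narrow band that the limbs did not approach. Mfap5 stood at 1717, 1614 and 1545 CPM in Penis 1, 2 and 3, 704 CPM in the forelimb and 443 CPM in the hindlimb (log2 fold change 1.47 ± 0.16 (SE), adjusted p = 1.35e-05), and Loxl1 at 361, 359 and 339 CPM in the penis libraries against 159.9 and 133 CPM in the limb libraries (log2 fold change 1.23 ± 0.09 (SE), adjusted p = 6.88e-07). Fbln5 stood at 194, 188 and 184 CPM in the penis libraries against 93.2 and 65.5 CPM in the limb libraries (log2 fold change 1.21 ± 0.12 (SE), adjusted p = 7.59e-06), with the forelimb above the hindlimb. Its log2 difference was under the limit without the hindlimb (0.98) and with 1 marker fewer in every gate (0.78). Loxl1 was under the limit with gates read at 2000 UMIs per cell (0.88) and with 1 marker more (0.999). Loxl3 (log2 fold change 1.01 ± 0.12 (SE), adjusted p = 2.58e-05) lay at the limit and lost its call under 6 settings, with values from 0.85 (gates read at 2000 UMIs) to 0.992 (DESeq2). Among them were leaving out Penis 1, at 0.98, and the hindlimb, at 0.89. The fibrillins were level by comparison: Fbn1 stood at 779, 776 and 871 CPM in the penis libraries against 906 and 832 CPM in the limb libraries, groups that overlap, and Fbn2 at 766, 797 and 873 CPM in the penis libraries against 851 and 889.8 CPM in the limb libraries.

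Eln, Loxl1 and Mfap5 were called higher in the penis in both tendon-like and smooth muscle-like cells, as gated. In tendon-like cells (248, 226 and 201 per penis library, forelimb 664, hindlimb 577) 4 of the 9 genes that passed the filter on low counts were called higher and 0 lower (at an unadjusted p under 0.05 they numbered 6 higher and 1 lower, and DESeq2 called 4 and 0), against 8.38% and 7.41% of all genes. Over all 13246 genes tested in tendon-like cells, 7127 had an unadjusted p under 0.05 in either direction. Loxl4 did not pass the filter in tendon-like, smooth muscle-like, pericyte-like or endothelial-like cells. Eln stood at 1241, 1005 and 1060.3 CPM in the penis libraries against 244 and 185 CPM in the limb libraries (log2 fold change 2.38 ± 0.12 (SE), adjusted p = 8.77e-09) and Mfap5 at 269, 282 and 206 CPM in the penis libraries against 100.2 and 64.4 CPM in the limb libraries (log2 fold change 1.65 ± 0.17 (SE), adjusted p = 5.12e-06). Loxl1 stood at 158, 145 and 126 CPM in the penis libraries against 69.8 and 63.9 CPM in the limb libraries (log2 fold change 1.13 ± 0.11 (SE), adjusted p = 3.02e-06), and Loxl3 at 20.7, 18.6 and 18.7 CPM in the penis libraries against 8.07 and 8.79 CPM in the limb libraries (log2 fold change 1.22 ± 0.19 (SE), adjusted p = 1.42e-04). None of the 4 overlapped between penis and limb, which a call on the same sums makes likely. The share of all genes without overlap was not computed. With gates read at 2000 UMIs per cell the calls of Mfap5 (adjusted p = 0.014) and Loxl3 (adjusted p = 0.057) were lost. Fbn2 was lower in each penis library, at 688, 796 and 812 CPM in the penis libraries against 971 and 958 CPM in the limb libraries, and was not called. In smooth muscle-like cells (110, 91 and 86 per penis library, forelimb 28, hindlimb 36) 3 of 9 genes were called higher and 0 lower (at an unadjusted p under 0.05 they numbered 3 higher and 0 lower, and DESeq2 called 3 and 0), against 6.31% and 4.78% of all genes. Of all 10134 genes tested in smooth muscle-like cells, 3875 had an unadjusted p under 0.05 in either direction. Eln stood at 1048, 1174 and 1178 CPM in the penis libraries against 182 and 165 CPM in the limb libraries (log2 fold change 2.72 ± 0.13 (SE), adjusted p = 5.97e-08). Mfap5 stood at 894, 973 and 806 CPM in the penis libraries against 122 and 156 CPM in the limb libraries (log2 fold change 2.68 ± 0.16 (SE), adjusted p = 2.68e-07), and Loxl1 at 229, 214 and 186 CPM in the penis libraries against 88.8 and 96.6 CPM in the limb libraries (log2 fold change 1.19 ± 0.18 (SE), adjusted p = 3.47e-04). As gated, the groups overlapped in none of the 3, again genes called on the same sums. Without Pdgfra-positive cells, which left too few limb cells for a test (11 in the forelimb and 10 in the hindlimb), Loxl1 stood at 200.1, 182 and 155 CPM in the penis libraries against 53.4 and 213 CPM in the limb libraries, groups that overlap. Eln then stood at 729, 914 and 945 CPM in the penis libraries against 214 and 360.1 CPM in the limb libraries, and Mfap5 at 939, 1050.1 and 631 CPM in the penis libraries against 309.9 and 66.7 CPM in the limb libraries. The smooth muscle markers themselves summed to 5688 to 7021 CPM in the penis and 647 to 1167 in the limbs, and the part of this difference in the result was not tested.

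In chondrocyte-like cells (135, 122 and 93 per penis library, forelimb 1601, hindlimb 2082) the penis held more Loxl4, Eln, Lox and Fbn1. The test called 4 of 10 genes higher and 0 lower (at an unadjusted p under 0.05 they numbered 8 higher and 1 lower, and DESeq2 called 4 and 0), against 9.72% and 6.86% of all 11939 genes. An unadjusted p under 0.05 in either direction was found for 6490 of these 11939 genes. Loxl4 stood at 27.5, 39.6 and 20.7 CPM in Penis 1, 2 and 3, 6.51 CPM in the forelimb and 3.23 CPM in the hindlimb (log2 fold change 2.70 ± 0.33 (SE), adjusted p = 3.59e-05). Behind these levels were 52, 72 and 26 UMIs in 11, 10 and 7 penis cells, and 64 and 48 UMIs in 41 and 26 limb cells. A few penis cells thus carried several Loxl4 UMIs each. The penis libraries did not overlap the limbs. Lox stood at 157, 182 and 161 CPM in the penis libraries against 48.5 and 40.4 CPM in the limb libraries (log2 fold change 1.94 ± 0.13 (SE), adjusted p = 1.80e-07), and Eln at 409, 361 and 454 CPM in the penis libraries against 97.9 and 92.7 CPM in the limb libraries (log2 fold change 2.12 ± 0.12 (SE), adjusted p = 4.61e-08). Fbn1 stood at 219, 231 and 232 CPM in the penis libraries against 119.5 and 98.2 CPM in the limb libraries (log2 fold change 1.09 ± 0.12 (SE), adjusted p = 1.19e-05). All 3, called on the same sums, were higher in each penis library than in either limb. Immune-like cells held Eln at 207 to 222 CPM in the penis and 20.9 to 33.5 CPM in the limbs. The Fbn1 difference was 0.93 without the hindlimb and 0.97 with 1 marker more in every gate, under the limit in both. Fbn2 stood at 1238, 1171 and 1243 CPM in the penis libraries against 738 and 759 CPM in the limb libraries, and Loxl3 was the only one of the 10 with all penis libraries below the limbs, at 36.4, 39.0 and 38.2 CPM in the penis libraries against 49.5 and 46.1 CPM in the limb libraries. Neither was called. Col10a1, a gene of hypertrophic cartilage, and Ibsp, a marker of the osteoblast-like gate, were among the 10 leading genes of the penis cells and not of the limb cells. Whether they account for Loxl4 was not tested.

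**Figure D3:**
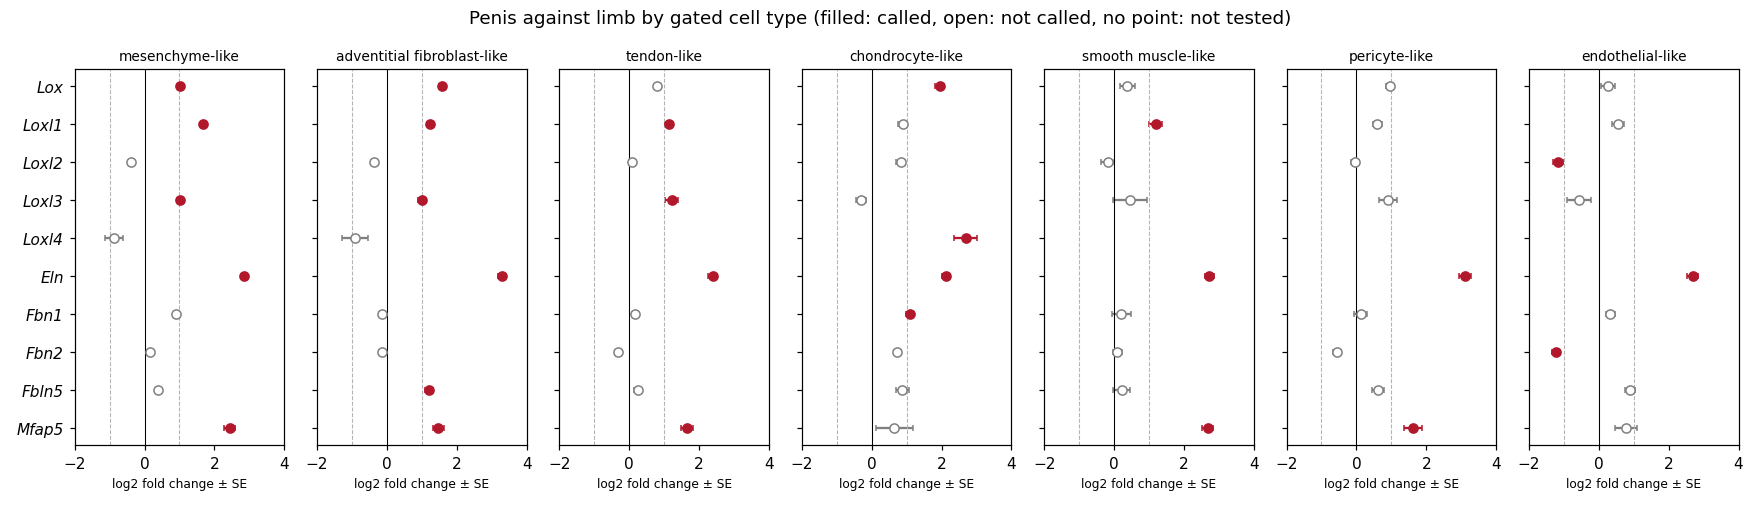
Log2 fold change of penis over limb (x axis) with its SE, by gene (rows) and cell type (panels). Filled points were called, open points were not, and dashed lines mark the fold limit of 1. Eln is the 1 gene called higher in every panel.

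In the vessel-associated gates the result turned on which cells were kept. Among all pericyte-like cells (201, 211 and 147 per penis library, forelimb 284, hindlimb 206) 2 of 9 genes were called higher and 0 lower (at an unadjusted p under 0.05 they numbered 6 higher and 1 lower, and DESeq2 called 2 and 0), against 8.78% and 6.92% of all genes: Eln at 2129, 1504 and 1748 CPM in the penis libraries against 219.9 and 184 CPM in the limb libraries (log2 fold change 3.11 ± 0.16 (SE), adjusted p = 5.70e-09) and Mfap5 at 1189.7, 1138 and 961 CPM in the penis libraries against 488 and 207 CPM in the limb libraries (log2 fold change 1.62 ± 0.25 (SE), adjusted p = 1.83e-04). Of all 12780 genes tested in all pericyte-like cells, 6201 had an unadjusted p under 0.05 in either direction. With the cells that held a Pdgfra UMI left out, an alternative chosen after the marker levels were seen, Eln stood at 680.4, 569.8 and 668 CPM in the penis libraries against 213 and 258 CPM in the limb libraries and was still called (log2 fold change 1.38, adjusted p = 2.05e-05). Mfap5 then stood at 499, 421 and 343 CPM in the penis libraries against 479 and 126 CPM in the limb libraries, groups that overlap, and was no longer called (0.35, adjusted p = 0.5). Its call was also lost with 1 marker more in every gate (1.18, adjusted p = 0.027) and with gates read at 2000 UMIs (1.23, adjusted p = 0.063). Lox went from 452 to 551 CPM to 156 to 207 CPM in the penis, and stood at 180.2 to 267 CPM in the limbs. When the gates were read on cells thinned to 2000 UMIs, the Eln difference was 0.90 (adjusted p = 0.091) and the call was lost. Without the forelimb 4 of the genes were called, beside 905 higher and 752 lower of 13332 over all genes.

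Endothelial-like cells (499, 510 and 418 per penis library, forelimb 412, hindlimb 366) had 3 genes called between the tissues. Eln was the 1 gene called higher, and Fbn2 and Loxl2 were the 2 called lower, of 9 tested (7.53% and 7.72% of all genes), and at an unadjusted p under 0.05 they numbered 5 higher and 2 lower, and DESeq2 called 1 and 2. Of all 13710 genes, 7424 had an unadjusted p under 0.05 in either direction. Eln stood at 301, 428 and 395 CPM in the penis libraries against 63.7 and 51.9 CPM in the limb libraries (log2 fold change 2.68 ± 0.14 (SE), adjusted p = 2.98e-10), beside 207 to 222 CPM and 20.9 to 33.5 CPM in the immune-like cells of the same libraries. Without Pdgfra-positive cells it stood at 231 to 319 CPM in penis endothelial-like and 67.1 to 104 CPM in penis immune-like cells. Fbn2 stood at 106, 138 and 101 CPM in the penis libraries against 272 and 259 CPM in the limb libraries (log2 fold change -1.22 ± 0.11 (SE), adjusted p = 1.43e-07) and Loxl2 at 16.8, 23.5 and 23.9 CPM in the penis libraries against 48.3 and 45.6 CPM in the limb libraries (log2 fold change -1.16 ± 0.15 (SE), adjusted p = 6.74e-06). Immune-like cells held Fbn2 at 96.6 to 151 CPM in the penis and 129 to 151 CPM in the limbs. The penis endothelial-like Fbn2 level was thus not above that of immune-like cells, while the limb level was. Loxl2 in immune-like cells stood at 9.57 to 16.3 CPM and 15.4 to 18.6 CPM. The limb endothelial-like cells held the mesenchymal markers at 979.6 to 1119 CPM against 704 to 835 in the penis. Without Pdgfra-positive cells Fbn2 differed by -0.80 and was not called, while Loxl2 was, at -1.02 (adjusted p = 3.83e-04). Loxl2 was under the limit without Penis 1 (-0.999), with 1 marker more in every gate (-0.95) and with gates read at 2000 UMIs (-0.92), where Fbn2 was too (-0.991). Fbln5 stood at 79.3, 96.0 and 114 CPM in the penis libraries against 50.7 and 51.4 CPM in the limb libraries, with 11.2 to 20.9 CPM and 10.0 to 17.6 CPM in immune-like cells. In the cells without Pdgfra it stood at 82.8, 92.0 and 116 CPM in the penis libraries against 46.2 and 43.4 CPM in the limb libraries, where it was called higher in the penis (1.05, adjusted p = 8.97e-06). Glial-like cells held Fbln5 at 126, 109 and 116 CPM in the penis libraries against 59.9 and 52.7 CPM in the limb libraries and Loxl3 at 26.3, 14.4 and 13.96 CPM in the penis libraries against 17.0 and 14.2 CPM in the limb libraries, without a test.

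**Figure D4:**
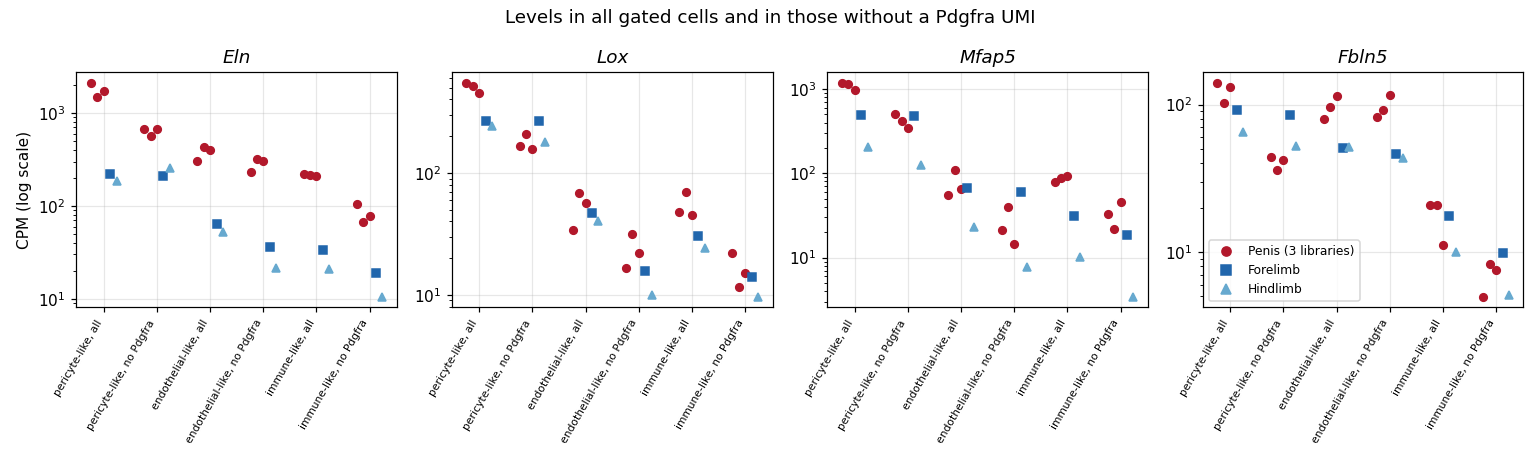
CPM (y axis, log scale) of Eln, Lox, Mfap5 and Fbln5 in all pericyte-like, endothelial-like and immune-like cells and in those without a Pdgfra UMI, 1 point per library. Eln in penis pericyte-like cells goes from 1504 to 2129 CPM to 569.8 to 680.4 CPM when the Pdgfra-positive cells are left out, and Fbln5 in penis endothelial-like cells from 79.3 to 114 CPM to 82.8 to 116 CPM.

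Adventitial fibroblast-like cells held more Mfap5 than mesenchyme-like cells in both tissues. Set against the mesenchyme-like cells of the same library, with the library as a block, 4 of 10 genes were called higher in the penis (3.7% of all genes) and 3 of 10 in the limbs (2.78%). In the lower direction the counts were 0 and 0 (background 2.9% and 2.58%), with 1 and 0 at an unadjusted p under 0.05 and 0 and 0 by DESeq2. Over all 18575 genes, 8890 in the penis and 8130 in the limbs had an unadjusted p under 0.05 in either direction. Mfap5 was called in both tissues (log2 fold change 1.84 ± 0.02 (SE), adjusted p = 1.98e-15 in the penis, and log2 fold change 2.78 ± 0.03 (SE), adjusted p = 2.33e-15 in the limbs). Fbn1 was too (log2 fold change 1.07 ± 0.04 (SE), adjusted p = 5.33e-11 in the penis, log2 fold change 2.09 ± 0.05 (SE), adjusted p = 2.02e-12 in the limbs). Lox (log2 fold change 1.45 ± 0.03 (SE), adjusted p = 4.88e-14) and Eln (log2 fold change 1.12 ± 0.04 (SE), adjusted p = 1.73e-11) were called in the penis. In the limbs Lox stood at 260.1 to 264 CPM against 147 to 156 CPM in mesenchyme-like cells, and Eln at 208 to 264 CPM against 154 to 165 CPM. Loxl1 was called in the limbs (log2 fold change 1.18 ± 0.05 (SE), adjusted p = 2.38e-10). Fbn2 in the penis stood at 766 to 873 CPM against 929.7 to 990.1 CPM in mesenchyme-like cells, and limb Fbln5 stood at 65.5 to 93.2 CPM against 85.1 to 96.3 CPM. Neither was called. The difference between the tissues in this contrast was called for Fbn1 alone of the 10, at -1.03 ± 0.06 (adjusted p = 4.93e-08), against 3.97% of all genes called in either direction. It lay at the limit, and was -0.92 without the forelimb and -0.995 without Penis 2, under the limit in both, and also under it with 1 marker fewer in every gate (-0.89), with gates read at 2000 UMIs (-0.89) and without the filter on low counts (-0.99). The penis Fbn1 contrast was not called without Penis 3 (0.996), with library size alone (0.96) or with 1 marker fewer in every gate (0.84), and limb Loxl1 was not with 1 marker fewer (0.91).

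Loxl3 and Loxl4 were called higher, and Mfap5 lower, in chondrocyte-like than in mesenchyme-like cells in both tissues. The few penis osteoblast-like cells, untested, also held more Loxl4 (10.0 to 28.9 CPM) and less Mfap5 (10.0 to 108 CPM) than mesenchyme-like cells. In the penis 2 of 10 genes were called higher and 3 lower (background 4.35% and 6.03%), and in the limbs 2 and 2 (background 4.38% and 7.77%). Loxl4 was higher by 5.52 ± 0.26 on the log2 scale in the penis (adjusted p = 5.51e-11) and by 1.99 ± 0.25 in the limbs (adjusted p = 8.74e-06). Loxl3 had the larger contrast in the limbs, 1.21 ± 0.12 in the penis (adjusted p = 1.04e-06) and 2.55 ± 0.10 in the limbs (adjusted p = 3.75e-12). With 1 marker fewer in every gate the penis contrasts of Loxl3 (0.78) and Eln (-0.93) lost their calls. Mfap5 stood at 9.51, 46.2 and 57.3 CPM in the penis libraries against 35.8 and 11.9 CPM in the limb libraries, which overlap, and was called lower in both (-3.75 ± 0.26 and -2.01 ± 0.24, adjusted p = 6.37e-09 and 5.52e-06). In the limbs DESeq2 gave Mfap5 an adjusted p of 0.033 and did not call it. Immune-like cells held Mfap5 at 78.8 to 92.8 CPM in the penis and 10.2 to 31.2 CPM in the limbs. The chondrocyte-like values lay below that level in the penis and overlapped it in the limbs. Eln and Loxl1 were called lower in the penis (-1.49 ± 0.07 and -1.45 ± 0.07, adjusted p = 2.72e-11 and 1.71e-10) and Lox in the limbs (-1.79 ± 0.08, adjusted p = 6.03e-11). The contrasts differed between penis and limb for 4 of the 10 (Loxl2, Loxl3, Loxl4 and Mfap5), against 7.21% of all genes. Loxl4 had the widest of these, at 3.54 ± 0.36 (adjusted p = 1.80e-06), and that of Mfap5 was not called by DESeq2 (adjusted p = 0.21).

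Endothelial-like cells were called lower than mesenchyme-like cells for 7 of 10 genes in the penis (background 16.8%) and for 5 of 10 in the limbs (background 9.22%). No gene was called higher in either (background 12.4% and 8.39%), with 0 and 0 at an unadjusted p under 0.05 and 0 and 0 by DESeq2. In the lower direction 9 and 9 had an unadjusted p under 0.05, and DESeq2 called 7 and 5. Over all 18323 genes, 12215 in the penis and 9483 in the limbs had an unadjusted p under 0.05 in either direction. Lox, Loxl1, Loxl2, Eln and Fbn2 were called lower in both tissues, with a log2 fold change for Fbn2 of -2.96 ± 0.07 in the penis and -1.62 ± 0.08 in the limbs (adjusted p = 8.95e-15 and 1.34e-10). With 1 marker fewer in every gate none of these 5 was called lower in the limbs, at -0.22 for Lox, -0.35 for Loxl1, -0.23 for Loxl2, -0.19 for Eln and -0.48 for Fbn2, and the 1 gene called there was Mfap5, higher, at 1.11 (adjusted p = 1.13e-05). In the penis Lox (-0.79), Loxl2 (-0.92), Eln (-0.63) and Mfap5 (-0.54) lost their calls at that setting, and Fbn2, Loxl1 and Loxl3 were the 3 called. All-gene counts there were 1760 higher and 1781 lower of 16621 in the penis and 808 higher and 107 lower of 16621 in the limbs. Fbln5 was not called in either. Of the 10 contrasts 4 differed between the tissues (Fbn2, Loxl1, Loxl3 and Mfap5), against 8.99% of all genes. Those of Loxl1, Loxl3 and Mfap5 were lost without the forelimb, at -0.84, -1.27 and -0.97. That of Mfap5 was also lost with DESeq2 (-1.56), 1 marker more (-0.30) and gates read at 2000 UMIs (-0.60), that of Loxl1 with 1 marker more (-0.65), and that of Loxl3 with 1 marker fewer (-0.87). Without Pdgfra-positive cells those of Fbn2 (-0.93) and Loxl3 (-1.66) were no longer called. Penis immune-like cells held Fbn2 at 96.6 to 151, Loxl1 at 27.0 to 39.9, Loxl3 at 2.36 to 4.35 and Mfap5 at 78.8 to 92.8 CPM. Penis endothelial-like cells overlapped these, at 101 to 138, 25.3 to 32.1, 3.15 to 3.45 and 56.0 to 109 CPM.

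Pericyte-like cells were called higher than mesenchyme-like cells for 1 of 10 genes in the penis, Mfap5 (log2 fold change 1.22 ± 0.07 (SE), adjusted p = 1.01e-13), and 3 in the limbs, Mfap5 (log2 fold change 1.94 ± 0.10 (SE), adjusted p = 8.71e-15), Fbn1 (log2 fold change 1.54 ± 0.11 (SE), adjusted p = 2.10e-11) and Loxl1 (log2 fold change 1.20 ± 0.08 (SE), adjusted p = 8.82e-12), with backgrounds of 4.01% and 1.98%. As gated, none was called lower (background 2.49% and 1.17%), with 1 and 0 at an unadjusted p under 0.05 and 0 and 0 by DESeq2. Over all 17911 genes, 5620 in the penis and 4538 in the limbs had an unadjusted p under 0.05 in either direction. The penis Mfap5 contrast changed sign under 3 settings. With gates read at 2000 UMIs it was -1.38, a call in the lower direction. Its edgeR adjusted p of 4.37e-46 is smaller than the spread between 5 libraries could give and is not read as strength. The penis Mfap5 contrast was -0.36 (adjusted p = 3.00e-04) with 1 marker more in every gate and -0.21 (adjusted p = 0.086) without Pdgfra-positive cells. With gates read at 2000 UMIs the limb contrasts of Mfap5 (-0.46) and Loxl1 (-0.44) were negative as well, while Fbn1 was no longer called (0.0858, adjusted p = 0.74). With 1 marker more in every gate none of the 3 limb contrasts was called, at 0.54 for Mfap5, 0.58 for Fbn1 and 0.65 for Loxl1. Without Pdgfra-positive cells Loxl1 was not called either, at 0.77. The Loxl1 contrast differed between the tissues (-1.06 ± 0.10, adjusted p = 1.93e-08), against 3.28% of all genes, and lost its call with 1 marker fewer in every gate, at -0.39 (adjusted p = 0.033). Smooth muscle-like cells had 0 genes called higher and 0 lower in the penis (background 3.03% and 1.52%) and 0 and 0 in the limbs (background 0.292% and 0.359%) by edgeR and by DESeq2. At an unadjusted p under 0.05 there were 1 higher and 2 lower in the penis and 3 and 0 in the limbs. Over all 18124 genes, 4064 in the penis and 2352 in the limbs had such a p in either direction. The limb sums of this type rest on 28 and 36 cells, and without the forelimb Fbn1 (1.27) and Mfap5 (1.03) were called there.

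**Figure D5:**
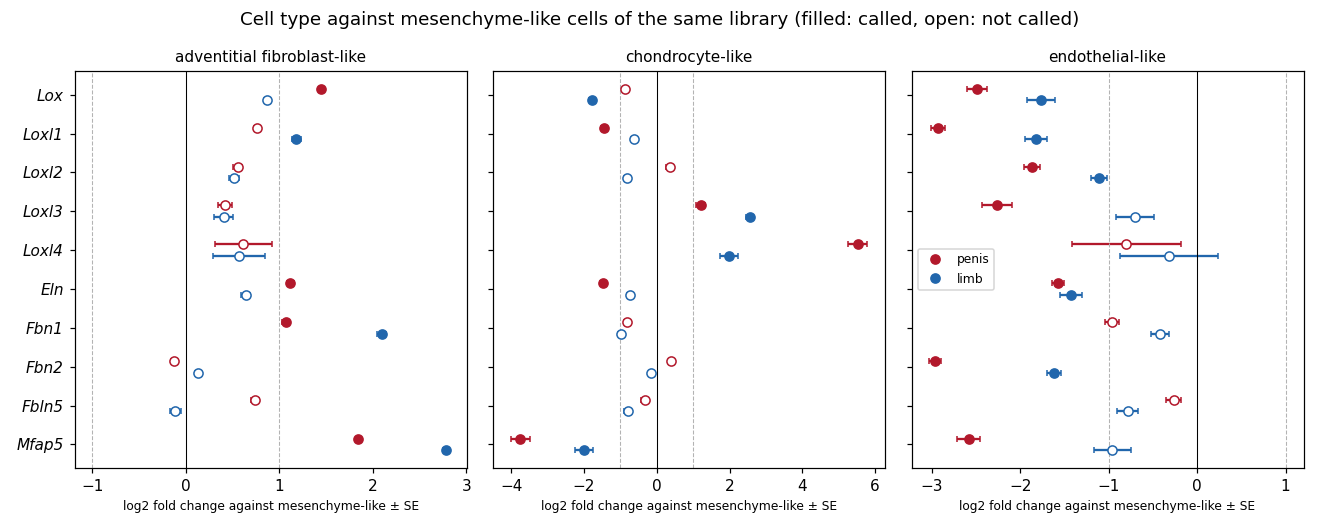
Log2 fold change (x axis) with its SE of each gene (rows) in 3 cell types (panels) against mesenchyme-like cells of the same library, in the penis and in the limbs. Filled points were called, and dashed lines mark the fold limit of 1. Loxl4 in chondrocyte-like cells reaches 5.52 in the penis.

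Other genes of elastic fibre assembly moved in both directions in mesenchyme-like cells. Of 21 such genes 7 were called higher in the penis and 4 lower, with a median log2 difference of 0.46, beside 12.5% and 12.6% of all genes tested. The widest higher calls were latent TGF-beta binding proteins and fibulins: Ltbp2 (4.05 ± 0.13), Ltbp4 (1.93 ± 0.13), Fbln2 (1.67 ± 0.06) and Efemp1 (1.61 ± 0.09). Ltbp4 works with fibulins in elastin deposition, and Ltbp2 binds fibrillin. The lower calls were the secreted protease Adamts17 (-1.75 ± 0.09), its relative Adamtsl2 (-1.21 ± 0.26), and the emilins Emilin2 (-1.69 ± 0.09) and Emilin3 (-1.15 ± 0.07). The adjusted p-values of these 8 ran from 8.65e-09 for Ltbp2 to 0.0022 for Adamtsl2. Of 9 genes that activate or serve lysyl oxidases, 1 was higher and 3 were lower, beside the same shares of all genes. The higher one was Postn (1.76 ± 0.08), whose protein scaffolds Bmp1 and Lox. The lower ones were the tolloid proteases Tll1 (-2.78 ± 0.13) and Tll2 (-1.27 ± 0.12), which can cleave the Lox propeptide, and the procollagen protease enhancer Pcolce2 (-1.17 ± 0.17). Bmp1 itself differed by -0.17 ± 0.05 and was not called. Among 9 fibrillar collagens, the substrates of the family, 0 were called higher and 2 lower, again beside 12.5% and 12.6% of all genes. The lower ones were Col2a1 (-2.44 ± 0.07) and Col11a1 (-1.37 ± 0.09), both of cartilage. Col1a1 (0.62 ± 0.09) and Col3a1 (0.57 ± 0.09) passed the p limit and not the fold limit.

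The assembly list had calls both ways in each of the other cell types, while the partner and collagen lists did so in some types only. Counts are given as higher and lower in the penis, with the share of all tested genes called in each direction in parentheses. Where a list's share lies near that share, its count is no result about the list. Adventitial fibroblast-like cells had 8 higher and 5 lower of 20 assembly genes, 0 and 3 of 9 partners, and 0 and 2 of 9 collagens (11.7% and 10.4% of all genes). In tendon-like cells the counts were 6 higher and 2 lower of 21 assembly genes, 2 and 2 of 9 partners, and 4 and 1 of 9 collagens (8.38% and 7.41% of all genes). In chondrocyte-like cells they were 8 higher and 2 lower of 19 assembly genes, 3 and 1 of 9 partners, and 5 and 0 of 9 collagens (9.72% and 6.86% of all genes). The 5 collagens that were higher in penis chondrocyte-like cells, Col1a1, Col1a2, Col3a1, Col5a1 and Col5a2, are those of fibroblasts and bone and were named after their values were seen. Smooth muscle-like cells had 3 higher and 1 lower of 19 assembly genes, 0 and 2 of 7 partners, and 0 and 2 of 8 collagens (6.31% and 4.78% of all genes). Pericyte-like cells had 4 higher and 5 lower of 20 assembly genes, 0 and 3 of 9 partners, and 0 and 3 of 9 collagens (8.78% and 6.92% of all genes). For endothelial-like cells there were 4 higher and 5 lower of 21 assembly genes, 1 and 1 of 8 partners, and 0 and 2 of 9 collagens (7.53% and 7.72% of all genes).

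Against mesenchyme-like cells of the same libraries, endothelial-like cells held less of most of these genes. They had 1 higher and 16 lower of 21 assembly genes, 1 and 4 of 9 partners, and 0 and 7 of 9 collagens (12.4% and 16.8% of all genes) in the penis, and 0 higher and 15 lower of 21 assembly genes, 0 and 3 of 9 partners, and 0 and 6 of 9 collagens (8.39% and 9.22% of all genes) in the limbs. Adventitial fibroblast-like cells had 4 higher and 1 lower of 21 assembly genes, 0 and 0 of 9 partners, and 4 and 0 of 9 collagens (3.7% and 2.9% of all genes) in the penis, and 4 higher and 1 lower of 21 assembly genes, 2 and 0 of 9 partners, and 1 and 0 of 9 collagens (2.78% and 2.58% of all genes) in the limbs. Chondrocyte-like cells of the penis had 4 higher and 4 lower of 21 assembly genes, 2 and 0 of 9 partners, and 4 and 2 of 9 collagens (4.35% and 6.03% of all genes). Those of the limbs had 0 higher and 4 lower of 21 assembly genes, 1 and 1 of 9 partners, and 3 and 6 of 9 collagens (4.38% and 7.77% of all genes). Pericyte-like cells of the penis had 3 higher and 1 lower of 21 assembly genes, 1 and 0 of 9 partners, and 2 and 0 of 9 collagens (4.01% and 2.49% of all genes), and those of the limbs 4 higher and 0 lower of 21 assembly genes, 1 and 0 of 9 partners, and 4 and 0 of 9 collagens (1.98% and 1.17% of all genes). Smooth muscle-like cells of the penis had 0 higher and 2 lower of 21 assembly genes, 0 and 0 of 9 partners, and 1 and 0 of 9 collagens (3.03% and 1.52% of all genes), and those of the limbs 0 higher and 0 lower of 21 assembly genes, 0 and 0 of 9 partners, and 0 and 0 of 9 collagens (0.292% and 0.359% of all genes).

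Profiles over the 57 sums of a cell type in a library were compared by Pearson's r of log2(CPM + 1), as a description over sums that share libraries. Every gate with 20 or more cells in a library gave a sum, the mixed red blood-like gate included. Lox and Loxl1 were each other's nearest gene of 12406 compared (r = 0.97). After Loxl1, Lox was nearest to Dcn (r = 0.96) and Glt8d2 (r = 0.95), and after Lox, Loxl1 was nearest to Cd248 (r = 0.94) and Calml4 (r = 0.94). Eln lay nearest to Serpinf1 (r = 0.96), Ltbp2 (r = 0.95) and Spock2 (r = 0.94), Mfap5 to Serping1 (r = 0.96), Tnxb (r = 0.95) and Dpt (r = 0.95), and Fbn1 to Fstl1 (r = 0.94), Cd248 (r = 0.92) and Lox (r = 0.89). Fbn2 lay nearest to Mrc2 (r = 0.97), Cacna1g (r = 0.96) and Smarca1 (r = 0.95), and Fbln5 to Wipi1 (r = 0.92), Sparc (r = 0.91) and Selenom (r = 0.91). Loxl2 lay nearest to Efemp2 (r = 0.96), Ndn (r = 0.94) and Zfp9 (r = 0.94). Loxl3 lay nearest to Col27a1 (r = 0.92), Me1 (r = 0.87) and Armh4 (r = 0.87), and Loxl4 to Ibsp (r = 0.80), Col10a1 (r = 0.77) and 1810058I24Rik (r = 0.76).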

How the data were processed

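The authors processed 5 single-cell libraries with Cell Ranger 7.0.0 on mm10, per the submitters' notes, and deposited UMI counts per gene and barcode. Whether intronic reads were counted is not given in the sources used here. Cells were kept by the study's limits, read as 500 to 6000 genes and at most 5% mitochondrial UMIs in the penis, 100 to 9000 (forelimb) or 9500 (hindlimb) genes and at most 10% in the limbs, and a ratio of log10 genes to log10 UMIs of at least 0.8. A cell passed a type's gate with 3 to 5 of its 6 to 9 markers. Cells that passed 2 lineage gates were left out as possible doublets, except pericyte with smooth muscle, and no doublet caller was run. Counts were summed per library and type. A type needed 20 cells per library to enter the tests, which used edgeR 4.0.16 in R 4.3.3 (TMM, filterByExpr, quasi-likelihood, Benjamini-Hochberg over all genes tested), penis against limb over 3 and 2 libraries, or type against mesenchyme-like with the library as a block. Replicate numbers do not pair penis with limb. Alternatives were DESeq2 1.42.0, library size alone, no filter on low counts, all barcodes, 1 marker more or fewer, gates read at 2000 UMIs, each library left out, no block and, added after the data were seen, gated lineage cells without Pdgfra. The fits were tested on simulated data with changes well past the fold limit, which does not bear on calls near that limit. All 10 genes are described, and of 3 further lists the up to 4 called genes with the largest change in each direction in mesenchyme-like cells. For each gene the 3 nearest profiles among genes of mean CPM 5 or more are named. The genes and lists were chosen with earlier results of these data known. Count intervals and floors cover counting error only.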

Additional observations from a re-analysis of the deposited data

Results flagged for a closer look

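The contrast of a cell type with the mesenchyme-like cells of the same library differed between penis and limb for the genes below, by edgeR's test of the difference itself (penis contrast minus limb contrast, log2 scale, with its SE and adjusted p). In adventitial fibroblast-like cells it was -1.03 ± 0.06 for Fbn1 (adjusted p = 4.93e-08). In chondrocyte-like cells it was 1.18 ± 0.12 for Loxl2 (adjusted p = 1.78e-06), -1.35 ± 0.15 for Loxl3 (adjusted p = 4.52e-06), 3.54 ± 0.36 for Loxl4 (adjusted p = 1.80e-06) and -1.75 ± 0.38 for Mfap5 (adjusted p = 0.0029). In pericyte-like cells it was -1.06 ± 0.10 for Loxl1 (adjusted p = 1.93e-08). In endothelial-like cells it was -1.34 ± 0.10 for Fbn2 (adjusted p = 1.76e-07), -1.11 ± 0.17 for Loxl1 (adjusted p = 2.04e-04), -1.56 ± 0.31 for Loxl3 (adjusted p = 0.0017) and -1.62 ± 0.28 for Mfap5 (adjusted p = 4.34e-04). The Mfap5 difference in chondrocyte-like cells was not called by DESeq2 (adjusted p = 0.21) or without the block (0.042), nor was that in endothelial-like cells (0.011 and 0.014). Without Pdgfra-positive cells the endothelial-like Fbn2 difference was -0.93 and that of Loxl3 -1.66 (adjusted p = 0.027), and neither was called. With 1 marker fewer in every gate the pericyte-like Loxl1 difference (-0.39), the chondrocyte-like Loxl2 difference (0.97) and the endothelial-like Loxl3 difference (-0.87) lost their calls. With 1 marker more the endothelial-like Loxl1 (-0.65) and Mfap5 (-0.30) differences did, as they did with gates read at 2000 UMIs (-0.37 and -0.60). The adventitial fibroblast-like Fbn1 difference was under the limit at 2000 UMIs (-0.89), with 1 marker fewer (-0.89) and with no filter on low counts (-0.992), and the chondrocyte-like Mfap5 difference with all barcodes (-0.95). Penis chondrocyte-like Mfap5 (9.51 to 57.3 CPM) lay below the immune-like level (78.8 to 92.8 CPM). Penis endothelial-like Fbn2, Loxl1, Loxl3 and Mfap5 overlapped the immune-like levels. The part of such background counts in these differences was not tested. The causes were not tested.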

How the results depend on the processing

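Fold changes were recomputed for genes called in the main setting, and for all 10 in mesenchyme-like penis against limb. Calls gained by other genes therefore do not enter the first count. Of 933 such fold changes, 855 kept direction and call, and of 211 counts of called genes 191 stayed within 1.5 times. The causes of the others were not tested. Settings that changed the gated cells kept fewer fold changes. Gates read at 2000 UMIs kept 39, with 12 calls lost and 3 signs reversed. With 1 marker fewer 54 were kept and 20 lost, and with 1 marker more 61 were kept, 9 lost and 1 reversed. Without Pdgfra-positive cells 20 were kept, 5 lost and 1 reversed. DESeq2, on the same sums, kept 69 and lost 5. With 1 marker more in every gate, called genes numbered 1 for penis against limb in pericyte-like cells, 3 and 0 for pericyte-like against mesenchyme-like in penis and limb, and 8 for endothelial-like in the limbs. With 1 marker fewer they numbered 5 and 4 for penis against limb in smooth muscle-like and pericyte-like cells. Against mesenchyme-like they were 3 (chondrocyte-like, penis), 1 and 1 (smooth muscle-like, penis and limb), 3 (pericyte-like, penis), and 3 and 1 (endothelial-like). With gates read at 2000 UMIs they were 2, 0 and 5 for penis against limb in tendon-like, pericyte-like and endothelial-like cells, 6 for pericyte-like in the penis and 9 for endothelial-like in the limbs. The main setting had 1 higher and 5 lower in the last 2 of these comparisons. All these counts take both directions together, and the 6 include Mfap5 as lower. Counts over all genes, both directions together, are given below where they moved by over 1.5 times. Elsewhere they stayed within 1.5 times of the main setting. That setting called 1032 higher and 1058 lower of 13710 for penis against limb in endothelial-like cells. For endothelial-like against mesenchyme-like in the limbs it called 1537 and 1690 of 18323. Shares of all genes at each setting are not given, so these counts are no result about the 10 genes. Some types fell under 20 cells in a library under stricter gates and were not tested there. Without Pdgfra-positive cells 1 gene was called in pericyte-like cells. Leaving out 1 library gave 2 to 4 for penis against limb in pericyte-like and 0 to 2 for smooth muscle-like against mesenchyme-like in the limbs, the highest in both without the forelimb. The sign reversed for Mfap5 in penis pericyte-like against mesenchyme-like cells, at -0.36 (1 marker more), -1.38 (2000 UMIs) and -0.21 (without Pdgfra). In the limbs it reversed at 2000 UMIs for Loxl1 (-0.44) and Mfap5 (-0.46). The Loxl2 share difference of penis minus limb mesenchyme-like cells went from 4.06 to -3.49 percentage points once thinned. Lox in mesenchyme-like cells was under the fold limit with DESeq2 (0.996), all barcodes (0.98) and 1 marker fewer (0.69). No paired analysis was possible between penis and limb because the labels tie no penis library to a limb library. Without the library as a replicate block, the tissue differences of the Mfap5 contrasts were -1.79 in chondrocyte-like and -1.63 in endothelial-like cells and lost their calls, and no other call made for the 10 genes was lost. Calls over all genes that moved by over 1.5 times were 1225 against 1871 (2000 UMIs) for adventitial fibroblast-like against mesenchyme-like in the penis, 2287 against 1417 (without Hindlimb 1) for chondrocyte-like against mesenchyme-like in the limb, 3227 against 915 (1 marker fewer) for endothelial-like against mesenchyme-like in the limb, 5351 against 3541 (1 marker fewer) for endothelial-like against mesenchyme-like in the penis, 3791 against 2383 (2000 UMIs) for penis against limb in adventitial fibroblast-like. Others were 2007 against 3060 (1 marker fewer), 1308 (1 marker more), 708 (2000 UMIs), 1204 (without Pdgfra) for penis against limb in pericyte-like, 1123 against 1986 (1 marker fewer) for penis against limb in smooth muscle-like, 2092 against 1110 (2000 UMIs) for penis against limb in tendon-like, 565 against 1106 (2000 UMIs), 369 (without Forelimb 1) for pericyte-like against mesenchyme-like in the limb, 1165 against 1883 (2000 UMIs) for pericyte-like against mesenchyme-like in the penis. Others were 118 against 73 (1 marker fewer), 61 (all deposited barcodes), 76 (DESeq2), 25 (no block) for smooth muscle-like against mesenchyme-like in the limb, 824 against 364 (1 marker fewer), 529 (all deposited barcodes) for smooth muscle-like against mesenchyme-like in the penis.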

Other observations

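Cell types too small for a test, or left out of the tests, held further values. In the few osteoblast-like cells Loxl4 stood at 10.0, 12.9 and 28.9 CPM in Penis 1, 2 and 3 and 0 and 0 CPM in the forelimb and hindlimb, from 2, 3 and 4 UMIs in the penis and 0 in each limb. Lox there stood at 171, 249.6 and 282 CPM in Penis 1, 2 and 3 and 349 and 461 CPM in the forelimb and hindlimb. In forelimb keratinocyte-like cells Loxl4 reached 12.2 CPM, from 18 UMIs in 3 cells of 264, against 1.00 CPM in the hindlimb. Muscle-like cells, of which the penis libraries held 1 to 3, carried Fbn2 at 212 and 213 CPM and Loxl2 at 40.9 and 44.4 CPM in the forelimb and hindlimb.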
